A study of Drosophila melanogaster and Drosophila simulans and Drosophila sechellia with 48 samples.

Results

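The genes described here are those whose symbol in the annotation of the array's probes begins with RpL or RpS, the proteins of the cytosolic ribosome, or with mRpL or mRpS, the proteins of the mitochondrial ribosome. L marks the large and S the small subunit. Of 69 such symbols on the array, 29 had values on all 12 arrays of at least 1 species or of the hybrids, 14 cytosolic and 15 mitochondrial. The other 40, of which 8 were cytosolic and 32 mitochondrial, did not and are not described. In the whole series 3225 named genes were measured. The hybrids held 10 cytosolic and 12 mitochondrial members, D. melanogaster 10 and 11, D. sechellia 13 and 14, and D. simulans 11 and 12. A set of 8 cytosolic and 9 mitochondrial members was measured in all of them.

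The cytosolic ribosome translates the messages of the nuclear genome, and in insects it is made in large amounts while larvae feed and grow. The mitochondrial ribosome translates only the few proteins of the respiratory chain that mitochondrial DNA encodes. Its own proteins are nevertheless encoded in the nucleus, translated by the cytosolic ribosome and imported. In metamorphosis most larval tissues are broken down and the adult body, with flight muscles rich in mitochondria, is built during the pupal period.

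RNA was taken from pools of 25 whole males. The groups were F1 hybrids of D. simulans females and D. sechellia males, and 3 pure species, namely D. melanogaster and the parents of the cross, D. sechellia and D. simulans. Each was sampled as larvae (96 h after hatching), early pupae (4 h after puparium formation in the labels, while the Methods give an earlier hour), late pupae (72 h) and adults (1.5 h after eclosion). There were 3 arrays in each of the 16 groups. In a pure species the 3 arrays carry the same pool, and in the hybrids they carry 3 separate pools. The stocks were 14021-0231.00 for D. melanogaster, Cousin Island for D. sechellia and 14021-0251.2 for D. simulans, and the hybrids came from the stocks of their parents. A value is the log2 ratio of a sample to the other dye's RNA on the same array, drawn from D. melanogaster males of mixed stages, so 0 is the level of that reference. The samples' RNA went through 2 rounds of amplification and the reference through none. Values of one gene can be compared between stages, and values of different genes cannot be ranked. The array carries D. melanogaster cDNA, and a difference between species or between hybrids and a species also holds any difference in hybridisation. In whole animals, fewer cells of a type and less RNA per cell cannot be told apart.

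Pairs of arrays were near-identical in 7 groups, namely 6 groups of pure species and the hybrid adults 1 and 2. The difference between duplicate spots correlated at 0.606 to 0.97 in those pairs and at -0.0339 to 0.0365 in the 41 other pairs within groups. Each near-identical pair differed by less than the other arrays of a group and was counted as 1 sample. Over the 48 arrays the median ran from -0.09 to 0.09. The stages were checked with marker genes. Eig71Ed, an ecdysone-induced gene of the prepupa, averaged 0.43 in hybrid early pupae and lay between -4.46 and -4.16 at the other hybrid stages. Fbp1, a receptor for larval serum protein, was lowest in adults of the hybrids and of all 3 species. None of the female markers on the list was measured. Among the hybrids, larval pool 1 stood apart: its mean correlation with the other larval pools was 0.763, against 0.845 and 0.851 for pools 2 and 3. It had the lowest value of the 3 pools for 9 of 10 cytosolic members, with a median difference of -0.68 from the other pools, and for 5 of 12 mitochondrial members (median difference -0.07). The main results of hybrid larvae are therefore also given without it. As pool 1 was lowest for most cytosolic members, leaving it out raises their larval means by construction.

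The compartments followed different courses over development. The majority of cytosolic members had their highest mean in larvae in every group, from 54.5% in D. simulans to 100% in D. melanogaster. In D. simulans this majority holds only with RpL39 taken on the first of its array elements. Most mitochondrial members of the hybrids, D. melanogaster and D. simulans were highest in late pupae. The median of the cytosolic members was -0.04, -0.11, -0.55 and -0.69 in hybrid larvae, early pupae, late pupae and adults, with the larval pools at -0.52, 0.18 and 0.45 and a larval median of 0.30 without pool 1. In D. melanogaster it was 0.03, -0.62, -0.76 and -1.18 over the same stages. D. sechellia had medians of 0.92, 0.09, -0.49 and -0.13. D. simulans was flatter, at 0.06, -0.25, -0.02 and -0.30. The mitochondrial medians were -0.18, -0.21, 0.07 and 0.08 in the hybrids and -0.15, -0.01, 0.05 and -0.29 in D. melanogaster. They were 0.43, -0.22, 0.08 and -0.57 in D. sechellia and 0.03, 0.16, 0.30 and 0.04 in D. simulans. The late pupal mitochondrial median was thus above the early pupal one in every group, while the cytosolic one was above it in D. simulans alone.

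**Figure D1:**
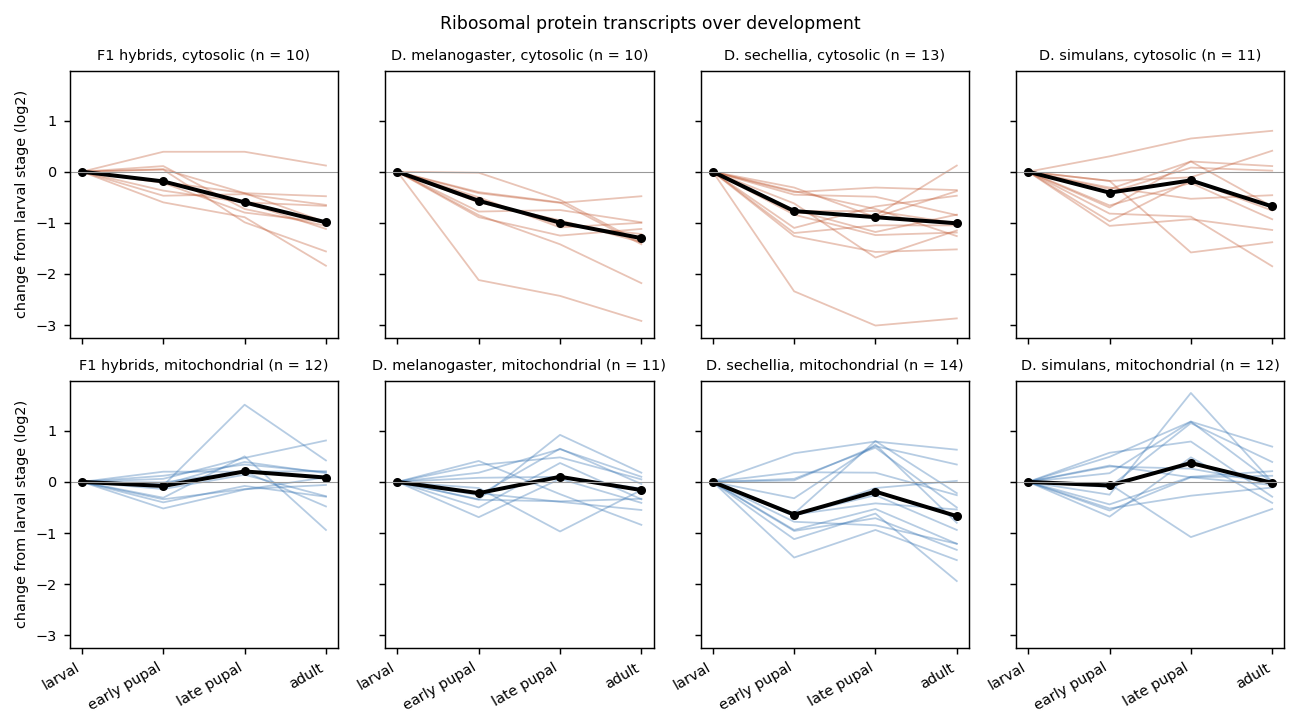
Change of each ribosomal protein gene from its larval mean (log2, y axis) over the 4 stages (x axis), with 1 thin line per gene and the median over genes in black, for cytosolic (top) and mitochondrial (bottom) members in the F1 hybrids and the 3 species. Means are over the 3 arrays of a group, and for mRpS31 the element measured in all groups is drawn. The black line descends in the cytosolic panels, except between early and late pupae in D. simulans, and has a local maximum in late pupae in all mitochondrial panels.

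The stage at which each gene had its highest mean gives the same picture gene by gene. Larvae held the highest mean of 6 of 10 cytosolic members in hybrids (60%), 10 of 10 in D. melanogaster, 12 of 13 in D. sechellia (92.3%) and 6 of 11 in D. simulans (54.5%). Over all named genes measured in the same group the shares were 21.8%, 26.5%, 29.5% and 28.8%. RpL39 is counted here on its first array element. Its second element was highest in adults in D. simulans and in early pupae in D. sechellia, where the first was highest in larvae. In the hybrids the second element was highest in larvae and the first in early pupae. Adults held the lowest mean of 9 of 10 cytosolic members in hybrids and 7 of 10 in D. melanogaster, against 3 of 13 in D. sechellia and 3 of 11 in D. simulans. Over all named genes these shares were 27.3%, 29.7%, 31.9% and 32.8%. On its second element RpL39 was lowest in late pupae in the hybrids, in early pupae in D. simulans and in adults in the other species. Late pupae held the highest mean of 7 of 12 mitochondrial members in hybrids (58.3%), 7 of 11 in D. melanogaster (63.6%), 5 of 14 in D. sechellia (35.7%) and 7 of 12 in D. simulans (58.3%). The shares over all genes were 24.9%, 19.5%, 13.5% and 21.5%. Without larval pool 1, larvae held the highest mean of 9 of 10 cytosolic members in hybrids and late pupae that of 8 of 12 mitochondrial ones. The cytosolic count is raised by leaving out the pool that was lowest for most of these members. In D. sechellia 7 of 14 mitochondrial members were highest in larvae. These shares are a description, since the members of a group share its arrays.

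**Figure D2:**
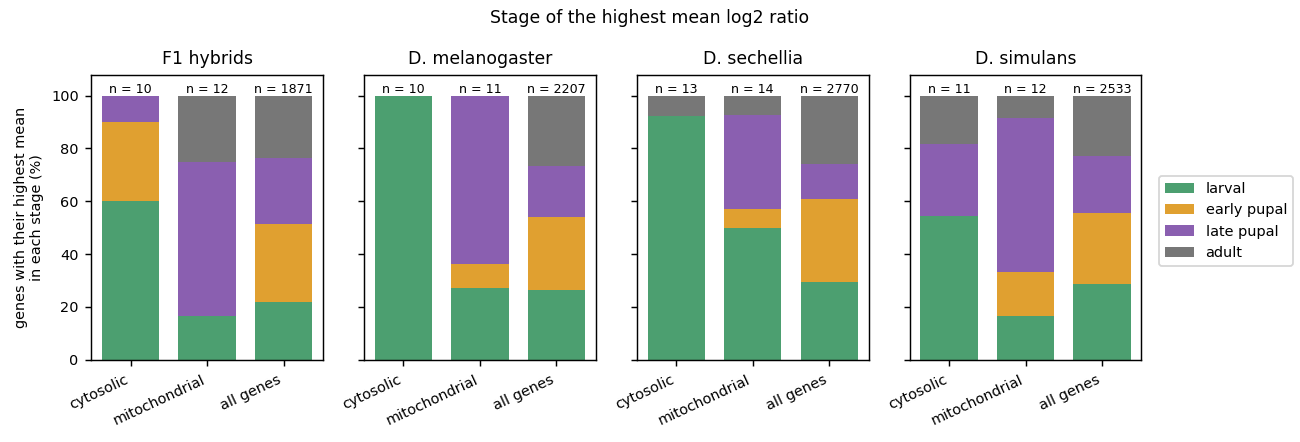
Share of genes (%, y axis) whose highest mean log2 ratio fell in each stage (colours), for cytosolic members, mitochondrial members and all named genes measured in each group, with the number of genes above each bar. RpL39 is counted on its first element. Larvae take 60% of the cytosolic bar in F1 hybrids and 100% in D. melanogaster, and late pupae take 58.3% of the mitochondrial bar in F1 hybrids, against 24.9% of the bar of all genes.

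Between larvae and adults, 5 of 10 cytosolic members fell in the hybrids and 6 of 8 in the mean of the pure species, and none rose in either. This comparison over the whole interval was added after the single transitions had been seen. A member was called where limma gave a Benjamini-Hochberg adjusted p under 0.05 and the change was at least 1.5-fold, or 0.58 on the log2 scale. By that rule 14.4% of all genes fell in the hybrids and 20.1% in the mean of the species. Both cytosolic counts include RpL39 on its first array element. On its second element it passed in neither, at -0.26 in the hybrids and -0.30 in the mean of the species. With both elements averaged RpL39 passed in both, at -0.93 and -1.45. The median change of the cytosolic members was -0.96 in the hybrids and -1.04 in the mean of the species, against -0.01 and -0.12 over all genes. All 8 members measured in every species lay below 0 in the species mean, as did 9 of 10 in the hybrids.

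RpLP0 is the core protein of the stalk of the large subunit, where elongation factors bind. It was at -0.63, -0.65 and -0.03 in hybrid adults, against 1.15, 1.55 and 1.49 in hybrid larvae, so the stages did not overlap. Here and below, hybrid adults 1 and 2 are the near-identical pair. How many of all genes lack such overlap between stages was not counted. The change of RpLP0 was -1.73 (SE 0.30, adjusted p = 0.000548) in the hybrids, or 3.32-fold lower. Averaged over the species it was -0.88 (SE 0.27, adjusted p = 0.0176). In adults of D. melanogaster it was at -0.43, -0.50 and 0.02, against 0.64, 0.57 and 1.26 in larvae. In D. sechellia the adult values were 0.72, 0.23 and 0.59 and the larval ones 1.19, 1.35 and 1.52. D. simulans overlapped, with -0.26, 0.65 and -0.30 in adults against 0.37, 1.32 and 0.67 in larvae.

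RpL15, a protein of the large subunit, fell in the hybrids by 0.97 (SE 0.26, adjusted p = 0.00947) and in the mean of the species by 1.31 (SE 0.23, adjusted p = 0.000331), or 2.48-fold. It was at 1.91, 1.75 and 1.91 in hybrid adults, against 2.76, 3.07 and 2.68 in hybrid larvae. In D. sechellia it was at 1.72, 1.85 and 1.72 in adults, against 2.82, 3.05 and 3.22 in larvae. In D. simulans the adult values were 1.61, 1.05 and 1.58, against 2.24, 3.70 and 2.43 in larvae. No array of adults reached the larval values in any of these groups. The change in D. simulans was -1.47 (SE 0.40, adjusted p = 0.0273) with all arrays and -0.74 (adjusted p = 0.374) without replicate 2 of each group, which holds the highest larval value, and it was also lost without replicate 3 (adjusted p = 0.0632). In D. sechellia the call was lost in 6 of the 15 fits that left out a replicate (adjusted p of up to 0.12) and with arrays centred (adjusted p = 0.0703). In the hybrids the call of RpL15 was lost without replicate 2 or 3 of each group (adjusted p = 0.0691 and 0.115).

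RpS7 and RpS15Ab belong to the small subunit. RpS7 was at -1.21, -1.05 and -1.60 in hybrid adults, against -0.89, -0.04 and 0.24 in hybrid larvae, and fell by 1.14 (SE 0.32, adjusted p = 0.0144). Its change was -1.47 without larval pool 1. The call was lost without larval or adult pool 3 (-0.90 in both, adjusted p = 0.0621 and 0.153) and without replicate 2 or 3 of every group (-1.09 and -0.67, adjusted p = 0.0535 and 0.367). In the species mean RpS7 fell by 1.08 (SE 0.29, adjusted p = 0.00814). RpS15Ab, whose near-identical paralog RpS15Aa may share its signal, was at -0.27, -0.19 and 0.02 in hybrid adults, against 0.82, 1.25 and 0.85 in hybrid larvae. It fell by 1.08 (SE 0.32, adjusted p = 0.019) in the hybrids and by 1.01 (SE 0.29, adjusted p = 0.0116) in the mean of the species. The hybrid call of RpS15Ab was lost without larval pool 2 (adjusted p = 0.0655), adult pool 3 (0.0647) or replicate 3 of every group (0.181), and the call in the species mean without replicate 3 (0.066). Both genes were below every larval pool in every adult pool of the hybrids, where adult pools 1 and 2 are near-identical. The nearest values of RpS7 were -1.05 in adults and -0.89 in larvae.

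RpL27, of the large subunit, was called in the mean of the species, with a change of -1.53 (SE 0.32, adjusted p = 0.00152). In D. melanogaster it was at -3.10, -3.01 and -3.86 in adults, against -1.34, -1.02 and -1.08 in larvae. The hybrids had -2.64, -2.55 and -2.31 in adults and -2.02, -1.24 and -1.27 in larvae, and the change of -0.94 missed the threshold (adjusted p = 0.0605). RpL3, a protein near the peptidyl transferase centre, and RpL17, which lies near the exit of the peptide tunnel, had changes of -0.65 and -0.55 in the hybrids and -0.52 and -0.41 in the mean of the species, and passed in neither. RpLP0-like, a counterpart of the yeast ribosome assembly factor Mrt4 rather than a subunit, had a change of -0.72 in the hybrids (adjusted p = 0.0592). Without larval pool 1 all 4 were called in the hybrids, RpL27 at -1.20 (adjusted p = 0.0112), RpL3 at -0.89 (0.0284), RpL17 at -0.76 (0.0413) and RpLP0-like at -0.96 (0.00655). As that pool was lowest for most cytosolic members, leaving it out enlarges these falls by construction. The share of all genes called in that fit is not given. RpS28b had a change of 0.07 in the hybrids (SE 0.28) and of -1.39 in D. melanogaster (SE 0.43, adjusted p = 0.0439). The difference between those changes was not tested. The call in D. melanogaster was lost with arrays centred (adjusted p = 0.0759) or scaled (adjusted p = 0.0864). It was also lost in 9 of the 15 fits that left out a replicate.

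Within single species fewer cytosolic members were called, since each species is 1 pool per stage and its spread is taken from the hybrid pools. In D. melanogaster 3 members fell, RpL39, RpL27 and RpS28b (3 of 10, against 4.87% of all genes). In D. sechellia 2 of 13 fell, RpL39 and RpL15 (6.23% of all genes), and in D. simulans 1 of 11, RpL15 (2.9% of all genes). The calls of RpL39 and RpL27 in D. melanogaster (adjusted p = 0.105 and 0.116) and of RpL39 in D. sechellia (0.0712) were lost without replicate 3. On its second element RpL39 was called in neither D. melanogaster (-0.80) nor D. sechellia (-0.26). With both elements averaged it was called in both species (-1.86 and -1.57). No cytosolic member rose in any of them. D. melanogaster had a median change of -1.30, D. sechellia one of -0.99 and D. simulans one of -0.64, against -0.08, -0.05 and -0.15 over all genes. The members measured in D. sechellia but not in D. melanogaster or the hybrids behaved unequally. RpL29 had a change of -1.04, RpL34a of -1.16 and RpS5b, a paralog of RpS5a, of -0.99, and none of these passed. RpL24-like, a counterpart of the yeast assembly factor Rlp24, had a change of 0.09 in D. sechellia and of 0.77 in D. simulans.

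The count in the hybrids depended on single pools. Without larval pool 1 it was 9 of 10, without larval pool 2 or 3 it was 3, and without adult pool 3 it was 2. Leaving out replicate 1, 2 or 3 of every group gave 9, 2 and 1, whereas the count in the mean of the species stayed at 5 or 6. The share of all genes called in these fits is not given, so the counts cannot be set against it. The markers of testis also moved over this interval: all 3 that were measured (dj, m-cup and ocn) rose in the mean of the species by 1.30 to 1.85. In the hybrids ocn rose by 2.34, the change of m-cup was 0.29 (adjusted p = 0.538) and dj was not measured. Their part in the fall of the ribosomal proteins was not tested.

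**Figure D3:**
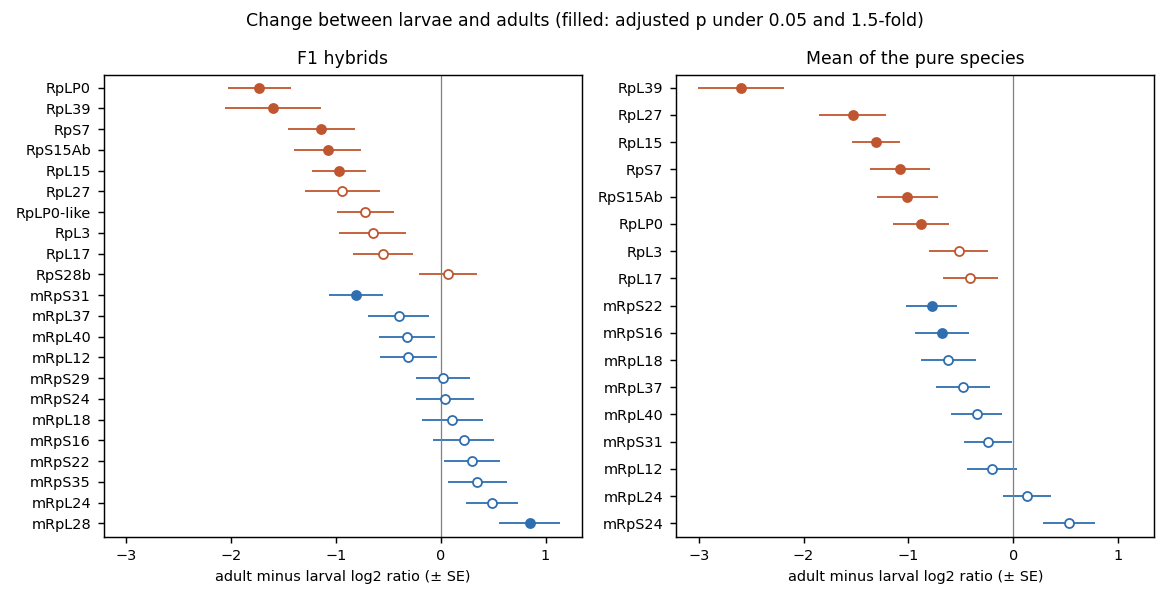
Adult minus larval log2 ratio of each member (x axis, with the standard error of limma's fit) in the F1 hybrids (left) and in the mean of the pure species (right), with cytosolic members in orange and mitochondrial members in blue. Filled points passed an adjusted p under 0.05 and 1.5-fold. RpL39 is drawn on its first element, and its second passed in neither group. All filled orange points lie below 0, from -2.60 for RpL39 in the mean of the species to -0.88 for RpLP0, while the filled blue points of the hybrids lie on both sides, at -0.81 for mRpS31 and 0.85 for mRpL28.

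Few cytosolic members passed in a single transition. In the mean of the species the largest median change was the first one, from larvae to early pupae (-0.70). From larvae to early pupae no cytosolic member was called in the hybrids (1 had an unadjusted p under 0.05, and 1 passed the methods' t-test over spots), where 19.4% of all genes were called. With Bonferroni adjustment that t-test called 697 of 2992 genes there. Here and below, that adjustment is over the 3 transitions and not over genes. The t-test takes each of the 6 spots of a group as a replicate. In the mean of the species 1 of 8 fell, RpL39, against 12% of all genes. All 8 lay below 0 in that mean, at a median of -0.70, against 0.02 over all genes, and 5 had an unadjusted p under 0.05. RpL39 is counted here on its first element, and its second had a change of 0.00 in that mean. With both elements averaged the change of RpL39 was -0.87 (adjusted p = 0.0275). The most negative changes after RpL39 were those of RpL27 (-0.90, adjusted p = 0.0506), RpS15Ab (-0.75, adjusted p = 0.0697) and RpLP0 (-0.74, adjusted p = 0.0589), and the smallest were those of RpL15 (-0.33), RpL3 (-0.36) and RpL17 (-0.46). In D. sechellia all 13 lay below 0 (median -0.79), with RpL39 called, against 4.41% of all genes. That call of RpL39 was lost in 6 of the 15 fits that left out a replicate (adjusted p of up to 0.135) and with arrays scaled (0.058). The second element of RpL39 lay above 0 in D. sechellia, at 0.38. In the hybrids RpLP0 (-0.60), RpL3 (-0.47) and RpLP0-like (-0.37) were lowest and RpS28b (0.39), RpS7 (0.10) and RpL27 (0.06) highest, none of them called. Without larval pool 1 the hybrid median was -0.33 and still none was called. Without hybrid larval pool 1, the count in the mean of the species was 5 of 8 in place of 1. The pool enters the spread by which the species were tested, for all genes alike. The share of all genes called in that fit is not given.

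From early to late pupae RpS7 fell in the hybrids by 0.84 (SE 0.29, adjusted p = 0.0306), where 19.6% of all genes fell. It was at -0.74, -0.82 and -1.33 in late pupal pools, against -0.30, 0.24 and -0.31 in early pupal ones. Its change in the mean of the species was 0.03, and in D. simulans it was 0.94 (adjusted p = 0.309). The difference between the hybrids and the mean of both parents was -1.13 for RpS7 (SE 0.46, unadjusted p = 0.0249, adjusted p = 0.9), so it was not called. Without early pupal pool 2 or late pupal pool 3 of the hybrids the call of RpS7 was lost (adjusted p = 0.133 and 0.138), as it was without replicate 2 or 3 of every group (0.168 and 0.164). RpL39 (-1.03, adjusted p = 0.0567) and RpL15 (-0.59, adjusted p = 0.0526) narrowly missed the threshold in the hybrids and were not called. RpL3 (0.03), RpS28b (0.01) and RpL17 (-0.22) were highest there. RpL15 fell in the mean of the species by 0.80 (SE 0.23, adjusted p = 0.0142), where 15.2% of all genes fell. Most of that came from D. simulans, at 1.27, 1.14 and 1.23 in late pupae against 2.37, 3.11 and 2.35 in early pupae (-1.41, SE 0.40, adjusted p = 0.0359; 3.75% of all genes fell). The call of RpL15 in the species mean was lost without replicate 2 (adjusted p = 0.059) or 3 (adjusted p = 0.0556) and with arrays scaled to the same SD (adjusted p = 0.0951). In D. simulans alone it was lost without replicate 2 or 3, when scaled and when centred (adjusted p = 0.0528 to 0.141). RpS15Ab (-0.31) and RpL39 (-0.29) came next in the mean of the species, and RpL3 (0.14), RpLP0 (0.12) and RpS7 (0.03) were highest.

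In D. simulans 9 of 11 cytosolic members had a change above 0 between early and late pupae, at a median of 0.31, against 47.6% and a median of -0.04 over all genes. None was called higher by limma (0 had an unadjusted p under 0.05 in that direction, and the methods' t-test with Bonferroni adjustment called 2 higher). In either direction that t-test called 1421 of 4005 genes there. RpL39 is among the 9 only with near-identical arrays merged (0.10), as its plain means were -0.88 in late and -0.82 in early pupae. All 10 members in D. melanogaster had a change below 0 (median -0.50). For RpLP0 the change in D. melanogaster was -0.51, against 0.02 for D. sechellia and 0.85 for D. simulans. For D. sechellia minus D. simulans, 9 of the 10 members measured in both had a difference of this transition below 0 (median -0.61), none with an unadjusted p under 0.05. From late pupae to adults no cytosolic member was called in the hybrids or in the mean of the species, where 12.2% and 14.5% of all genes were. In the hybrids 1 had an unadjusted p under 0.05 and in the species mean none did. The methods' t-test with Bonferroni adjustment called no cytosolic member in the hybrids, against 731 of 2992 genes. All 10 lay below 0 in the hybrids (median -0.37), led by RpLP0 (-0.85, adjusted p = 0.0824), RpL39 (-0.61) and RpL27 (-0.53), with RpL17 and RpLP0-like (both -0.12) and RpL15 (-0.17) nearest to 0. In the mean of the species RpL39 (-0.57), RpS7 (-0.45) and RpL27 (-0.44) were lowest and RpL17 (0.13), RpS15Ab (0.05) and RpL15 (-0.17) highest. In D. sechellia 9 of 13 lay above 0. No member of either compartment was called in any single transition of D. melanogaster, where 3.64%, 5.72% and 3.84% of all genes were called in the 3 transitions. At an unadjusted p under 0.05 there were 1, 0 and 0 cytosolic and 0, 2 and 0 mitochondrial members, and the methods' t-test with Bonferroni adjustment called 4, 1 and 2 cytosolic and 0, 3 and 3 mitochondrial ones. Over all genes that t-test called 1077, 1254 and 981 of 3512. In D. simulans no member was called in the transition to early pupae (5.02% of all genes) or to adults (2.65%), with mRpS31 taken on the element measured in 2 species. Its other element was called and is described with that gene. There 1 and 0 cytosolic and 0 and 3 mitochondrial members had an unadjusted p under 0.05, and the same t-test called 5 and 3 cytosolic and 1 and 5 mitochondrial ones. Over all genes it called 1161 and 1073 of 4005.

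Between early and late pupae all 12 mitochondrial members had a change of at least 0 in the hybrids and all 14 in D. sechellia, as did 8 of 9 in the mean of the species. In D. sechellia this holds by hundredths for mRpL12 (0.04) and mRpL18 (0.00), whose plain means over the 3 arrays were lower in late pupae (-0.18 and -1.94) than in early pupae (-0.17 and -1.87). The medians were 0.30, 0.41 and 0.22, against -0.06, -0.01 and -0.05 over all genes. There were 2 members that rose in both the hybrids and the mean of the species, mRpL24 and mRpS31. That is 2 of 12, against 17.7% of all genes, and 2 of 9, against 12.8%. These shares of called members lie near those of all genes.

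mRpL24 is a large subunit protein with a bacterial counterpart. In the hybrids it was at 0.18, 0.48 and 0.49 in larvae, 0.54, 0.33 and 0.07 in early pupae, 1.69, 1.83 and 2.15 in late pupae and 0.53, 0.78 and 1.09 in adults. The late pupal pools lay above all others. D. melanogaster had 0.49, 0.45 and 0.99 in early pupae, 1.45, 2.13 and 2.13 in late pupae and 1.12, 1.28 and 1.07 in adults. D. sechellia had 0.51, 0.38 and 0.50, then 2.03, 1.97 and 1.64, and then 0.83, 0.87 and 0.89 at those stages. In D. simulans the values were 0.36, 0.43 and 0.21, then 1.65, 1.46 and 1.63, and then 0.77, 0.93 and 0.77. In every group the late pupal arrays thus lay above the early pupal and the adult ones. The rise from early to late pupae was 1.57 in the hybrids (SE 0.23, adjusted p = 4.51e-05) and 1.26 in the mean of the species (SE 0.23, adjusted p = 0.00052), or 2.98-fold and 2.39-fold. Both of these calls held under every alternative. In D. sechellia alone the rise was 1.38 (adjusted p = 0.0428; 3.99% of all genes rose) and its call was lost in 7 of the 15 fits that left out a replicate (adjusted p of up to 0.12), while in D. melanogaster (1.17) and D. simulans (1.22) the change missed the threshold (adjusted p = 0.0958 and 0.0662).

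From late pupae to adults mRpL24 fell by 1.01 in the hybrids (SE 0.25, adjusted p = 0.0123) and by 0.80 in the mean of the species (SE 0.23, adjusted p = 0.0232). In this transition 2 of 12 mitochondrial members fell in the hybrids, against 5.21% of all genes, and 3 of 9 in the mean of the species, against 6.17%. The other members called were mRpS31 in both and mRpL12 in the mean of the species. The call of mRpL24 in the hybrids was lost without late pupal pool 3 (adjusted p = 0.0573) and without replicate 2 or 3 of every group, and that in the species mean without replicate 2 (adjusted p = 0.0511). In the hybrids mRpL37 (-0.61, adjusted p = 0.201) came next, and mRpL28 (0.38), mRpL18 (0.25) and mRpS29 (0.15) were highest. For the mean of the species mRpL40 (0.02), mRpL18 (-0.26) and mRpL37 (-0.34) were highest.

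mRpS31 belongs to the small subunit and has no bacterial counterpart. On the element measured in all groups it was at 1.07, 0.92 and 1.42 in hybrid larvae, 0.77, 0.80 and 0.92 in early pupae, 1.78, 1.43 and 1.70 in late pupae and -0.14, 0.05 and 0.69 in adults. The late pupal pools were the highest and the adult pools the lowest, with no overlap between either and the early pupal pools. In D. simulans it was at 0.88, -0.77 and 0.79 in early pupae, 2.14, 2.56 and 2.17 in late pupae and 0.48, 0.67 and 0.49 in adults. It rose by 0.81 in the hybrids (SE 0.23, adjusted p = 0.0122) and by 1.31 in the mean of the species (SE 0.23, adjusted p = 0.000504) into the late pupal stage. It then fell by 1.32 in hybrid adults (SE 0.26, adjusted p = 0.00247) and by 1.29 in adults of the species (SE 0.23, adjusted p = 0.000995). The fall was called under every alternative in both. The rise in the hybrids lost its call without any 1 of the 3 replicate numbers (adjusted p = 0.0576 to 0.0619).

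mRpL12, which forms the stalk of the mitochondrial large subunit, fell from late pupae to adults by 0.76 in the mean of the species (SE 0.24, adjusted p = 0.0427). The D. simulans adults were at -0.73, -0.69 and -0.79, while the late pupae had 0.68 and 0.66 on the near-identical arrays and a value near 0 on the other. D. melanogaster adults were at -0.73, -0.48 and -0.86, against -0.07, 0.01 and 0.13 in late pupae. The hybrids overlapped, with -0.73, -0.52 and -0.78 in adults and -0.04, 0.08 and -0.83 in late pupae (change -0.44, adjusted p = 0.354). The call in the species mean was lost with arrays centred on their median (adjusted p = 0.0666) and in 5 of the 15 fits that left out a replicate.

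**Figure D4:**
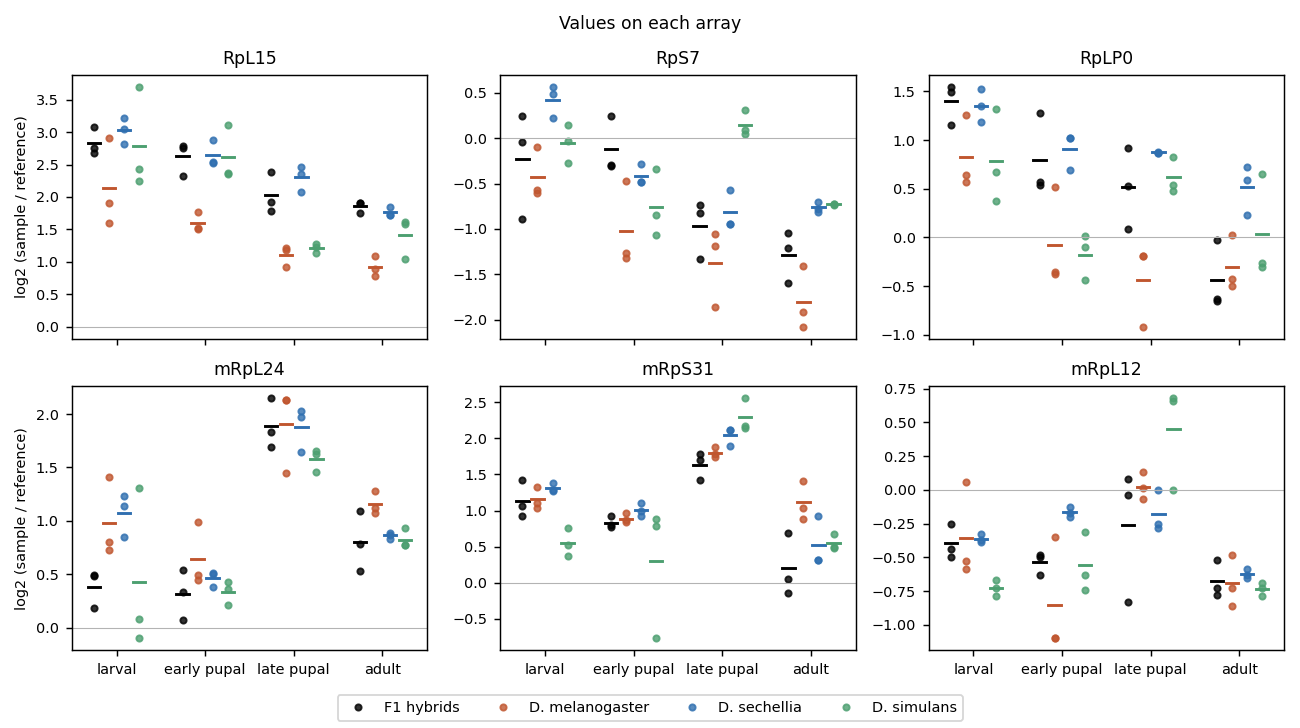
Log2 ratio of sample to reference (y axis) on each array for RpL15, RpS7, mRpL24, mRpS31 and mRpL12, which were called in single transitions, and for RpLP0, over the 4 stages (x axis) in F1 hybrids, D. melanogaster, D. sechellia and D. simulans (colours), with the mean of each group as a bar. For mRpL24 the late pupal points of the hybrids lie between 1.69 and 2.15, above the early pupal points at 0.07 to 0.54 and the adult points at 0.53 to 1.09.

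The other mitochondrial members moved less between early and late pupae. After mRpL24 and mRpS31 the largest changes were those of mRpS35 (0.44, adjusted p = 0.183) in the hybrids and of mRpL12 (0.56, adjusted p = 0.0929) in the mean of the species, and the smallest were those of mRpL37 (0.05), mRpL40 (0.14) and mRpS22 (-0.17) in the mean of the species. In the hybrids mRpL37 (0.00), mRpS29 (0.20) and mRpS24 (0.22) were lowest. Only mRpS22 lay below 0 in the mean of the species. The members measured in fewer groups lay on both sides. mRpL45, measured in D. simulans alone, had a change of 1.09 (adjusted p = 0.177), and mRpS9 had 0.79 in D. sechellia and 0.63 in D. simulans. mRpL33 had 0.41 in D. sechellia against -0.33 in D. simulans. The change of mRpL28 was 0.41 in the hybrids and 0.65 in D. sechellia. None of these was called.

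From larvae to early pupae no mitochondrial member was called in the hybrids or in the mean of the species, where 19.4% and 24.5% of all genes were. None had an unadjusted p under 0.05 in the hybrids and 2 of 9 did in the species mean. The methods' t-test with Bonferroni adjustment called no mitochondrial member in the hybrids, against 697 of 2992 genes. Most mitochondrial members lay below 0, 9 of 12 in the hybrids (median -0.08) and 8 of 9 in the mean of the species (median -0.24). mRpL18 (-0.57), mRpL40 (-0.51) and mRpL24 (-0.33) were lowest in the mean of the species, and mRpS24 (0.42), mRpL12 (-0.01) and mRpS22 (-0.08) were highest. In the hybrids mRpL18 (-0.52), mRpL40 (-0.39) and mRpS29 (-0.34) were lowest and mRpL37 (0.20), mRpS24 (0.12) and mRpL28 (0.07) highest. Without larval pool 1 mRpL18 was called in the hybrids (-0.73, adjusted p = 0.0355). The median was lowest in D. sechellia, at -0.66, where no mitochondrial member was called and 4 had an unadjusted p under 0.05 (8 by the methods' t-test). Over all genes that t-test, with Bonferroni adjustment, called 2106 of 4335 there.

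Over the whole interval from larvae to adults the mitochondrial members had a median change of 0.07 in the hybrids and -0.35 in the mean of the species. In the hybrids 1 of 12 fell (14.4% of all genes), mRpS31 by 0.81 (SE 0.26, adjusted p = 0.0284), and 1 rose (13.5% of all genes), mRpL28 by 0.85 (SE 0.29, adjusted p = 0.0369). mRpL28 was at 0.40, 0.28 and 0.56 in hybrid adults, against -0.43, -0.92 and 0.14 in hybrid larvae. It was not measured in D. melanogaster or D. simulans, and its change in D. sechellia, not tested against that of the hybrids, was -0.07. Its call in the hybrids was lost without larval pool 2 (0.60, adjusted p = 0.149) and without adult pool 3 (0.74, adjusted p = 0.195), and that of mRpS31 was lost without larval pool 3 (-0.67, adjusted p = 0.0977). Both were lost without replicate 2 or replicate 3 of every group.

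In the mean of the species mRpS22 fell by 0.78 (SE 0.24, adjusted p = 0.0165) and mRpS16, a counterpart of bacterial S16, by 0.68 (SE 0.26, adjusted p = 0.049), 2 of 9 against 20.1% of all genes. The call of mRpS16 was lost in 9 of the 15 fits that left out a replicate and with arrays centred, left unmerged or restricted to genes of all groups (adjusted p = 0.051 to 0.0877), and that of mRpS22 without replicate 3 (-0.53, adjusted p = 0.0747). D. sechellia had most of the mitochondrial calls. There 4 of 14 fell against 6.23% of all genes, namely mRpS16 (2.83-fold lower, SE 0.45 on the log2 scale, adjusted p = 0.0363), mRpS22 (-1.37, SE 0.41, adjusted p = 0.0365), mRpS35 (-1.96, SE 0.44, adjusted p = 0.00795) and mRpS31 (-2.69, SE 0.43, adjusted p = 0.00365, on the element measured in 2 species). On the element measured in all groups the change of mRpS31 was -0.70 (adjusted p = 0.254 over all elements) and was not called, which leaves 3 of 14. The call of mRpS22 in D. sechellia was lost without replicate 2 (adjusted p = 0.103). mRpS35 was at -1.09, -1.25 and -1.11 in D. sechellia adults, against 0.84, 0.73 and 0.81 in larvae. mRpS16 was at -0.92, -0.72 and -0.85, against 0.87, 0.66 and 0.56. In the hybrids the same genes had changes of 0.35 for mRpS35, 0.22 for mRpS16 and 0.30 for mRpS22. The difference between these changes and those of D. sechellia was not tested. In D. melanogaster no mitochondrial member was called (none had an unadjusted p under 0.05, and the methods' t-test called none). With Bonferroni adjustment that t-test called 1537 of 3512 genes in D. melanogaster.

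A pair of members lies on 2 elements of the array each, and in neither did the elements tell the same story. For RpL39, a very small protein that lines the peptide exit tunnel, the first element had the most negative larval to adult change of any member in the mean of the species. It was at -1.71, -1.46 and -1.89 in hybrid adults, against -1.35, 0.52 and 0.44 in hybrid larvae. In D. melanogaster it was at -2.60, -1.91 and -1.80 in adults, against 0.37, 0.84 and 1.25 in larvae. In D. sechellia it was at -1.84, -1.90 and -1.80 in adults, against 1.15, 1.01 and 0.91 in larvae. Its change was -2.60 in the mean of the species (SE 0.41, adjusted p = 0.000139) and -1.60 in the hybrids (SE 0.46, adjusted p = 0.0152). The second element had changes of -0.30 (SE 0.21, adjusted p = 0.262) and -0.26 (SE 0.24, adjusted p = 0.422). From larvae to early pupae the elements of RpL39 gave -1.74 (SE 0.41, adjusted p = 0.00499) and 0.00 (SE 0.21, adjusted p = 0.993) in the mean of the species. In the hybrids the change of the first element was -2.21 without larval pool 1, the pool with the value of -1.35. It lost its call without any of larval pools 2 and 3 and adult pool 3 (adjusted p = 0.0609, 0.0614 and 0.121). With both elements averaged, RpL39 changed by -1.45 in the mean of the species (adjusted p = 0.000638) and by -0.93 in the hybrids (adjusted p = 0.0307), and its early pupal call in D. sechellia was lost (-1.02, adjusted p = 0.173).

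The other element of mRpS31 had values in D. sechellia and D. simulans only. In D. simulans it ran like the first, at 0.22, 0.18 and 0.19 in early pupae, 1.50, 1.74 and 1.51 in late pupae and 0.12, 0.62 and 0.18 in adults. In D. sechellia adults it was at -2.16, -1.83 and -2.12, where the element measured in all groups was at 0.31, 0.93 and 0.31. The late pupal values of D. sechellia were 1.21, 1.21 and 1.28 on this element and 2.12, 2.12 and 1.90 on the element measured in all groups. The fall from late pupae to adults in D. sechellia was thus -3.23 (SE 0.43, adjusted p = 0.00213; 1.52% of all genes fell) on the element measured in 2 species and -1.39 (SE 0.41, adjusted p = 0.0645) on the other. In D. simulans the element measured in all groups rose by 2.06 into late pupae (SE 0.41, adjusted p = 0.00422) and fell by 1.78 into adults (SE 0.41, adjusted p = 0.0265). The element measured in 2 species had changes of 1.42 and -1.24 there (SE 0.43, adjusted p = 0.0768 and 0.239). These p-values in D. simulans were adjusted over all elements. The spread of the element without hybrid values rests on limma's prior alone, as it has no replicate pools.

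**Figure D5:**
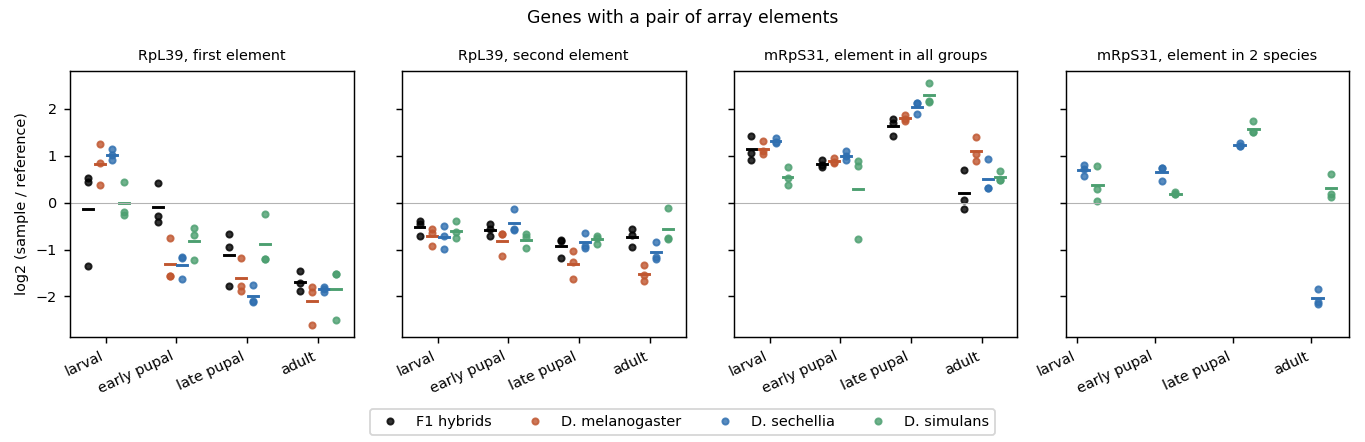
Log2 ratio of sample to reference (y axis) on each array over the 4 stages (x axis) for both array elements of RpL39 and of mRpS31, in F1 hybrids, D. melanogaster, D. sechellia and D. simulans (colours), with group means as bars. The first RpL39 element lies between -2.60 and -1.46 in adults of all groups, while the mRpS31 element measured in 2 species drops to between -2.16 and -1.83 in D. sechellia adults alone.

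Levels were also compared between species at each stage, in 12 comparisons. No cytosolic or mitochondrial member was called in any pair at any stage, and 1.69% of all genes measured in at least 2 species were. Of 112 tests of cytosolic members, 20 had an unadjusted p under 0.05 (17.9%), and of 124 of mitochondrial members 10 had (8.06%), against 10.4% over all genes. The cytosolic members of D. melanogaster were low in adults: all 9 measured in both lay below D. sechellia, at a median difference of -0.87, and 8 of 9 lay below D. simulans (median -0.49). Over all genes these medians were -0.02 and -0.07. In larvae all 10 cytosolic members lay above D. simulans in D. sechellia (median 0.53, against 0.00 over all genes), as did 9 of 11 mitochondrial ones (median 0.33).

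The largest single differences were mitochondrial. mRpL37, a large subunit protein without a bacterial counterpart, was at 1.91, 1.85 and 2.24 in D. sechellia late pupae and 1.01, 1.65 and 1.82 in D. melanogaster late pupae, against 0.44, -0.37 and 0.39 in D. simulans late pupae. The differences were 2.04 (SE 0.45, unadjusted p = 0.000285, adjusted p = 0.0914) for D. sechellia minus D. simulans and 1.47 (SE 0.45, adjusted p = 0.109) for D. melanogaster minus D. simulans. At the other stages the arrays of D. simulans, from 0.53 to 1.67, overlapped those of the other species. The mRpS31 element measured in 2 species differed by -2.37 between D. sechellia and D. simulans adults (SE 0.43, adjusted p = 0.26). When each technical array was taken as a replicate, 11 cytosolic and 11 mitochondrial members were called in some pair. Those calls hold only the spread between arrays of the same RNA. The share of all genes called in that fit is not given.

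The hybrids were set against each parent to ask whether members left the range of both. No cytosolic or mitochondrial member was called in the same direction against both parents at any stage, against 1.42% of all genes. Against single parents 7 of 72 tests of cytosolic members (9.72%) and 10 of 84 of mitochondrial members (11.9%) had an unadjusted p under 0.05, against 12.1% over all genes, and no test of a member was called (1.0% of the tests over all genes). With each array as a replicate none was called against both parents either. In late pupae mRpL37 was at 1.15, 1.78 and 1.99 in hybrids, near D. sechellia and above D. simulans (hybrids minus D. simulans 1.62, SE 0.36, adjusted p = 0.0575). In adults mRpS35 was at -0.35, -0.34 and 0.69 in hybrids, against -1.09, -1.25 and -1.11 in D. sechellia (difference 1.35, SE 0.38, adjusted p = 0.0799). The highest hybrid adult of mRpS35 was pool 3. Among the 12 mitochondrial members in hybrid adults, that pool had the highest value of 9 and the lowest of 3. Pools 1 and 2 are near-identical there, so the remaining pool tends to lie at an end.

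Early pupal cytosolic members lay above D. simulans in the hybrids for 8 of 9 genes (median 0.44, against -0.04 over all genes), with RpS15Ab (1.01, adjusted p = 0.257) and RpLP0 (0.97, adjusted p = 0.243) furthest above. In larvae 10 of 12 mitochondrial members lay below D. sechellia in the hybrids (median -0.63, against -0.04 over all genes), led by mRpL28 (-1.04, adjusted p = 0.18) and mRpS35 (-0.97, adjusted p = 0.198). The difference of each transition between groups was tested in 9 comparisons, and no member passed in any, with adjusted p of at least 0.637. At most 2 members had an unadjusted p under 0.05 in any of them, and of all genes 0.0579% were called between D. sechellia and D. simulans from early to late pupae, 0.029% between the same species from larvae to early pupae, 0.0395% between the hybrids and the mean of their parents from early to late pupae, and 0% in the other comparisons.

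Other genes of translation were taken from lists made with earlier results in view. Between larvae and adults 6 of 16 cytosolic translation factors fell in the hybrids and 1 rose, and 5 of 14 fell and 1 rose in the mean of the species. Over all genes 14.4% fell and 13.5% rose in the hybrids, and 20.1% fell and 19% rose in the mean of the species. Among those that fell in both were eIF5B, which joins the ribosomal subunits at initiation (-1.96 in the hybrids and -1.10 in the mean of the species), and eRF3, a termination factor (-0.95 and -0.59). The one that rose in both was eIF4E5, a cap-binding protein (1.66 and 1.93). The list's medians were -0.60 and -0.52. Of the ribosome assembly genes, 2 of 4 fell in the mean of the species, against 20.1% of all genes, the helicase pit (-0.76) and the nucleostemin Ns1 (-0.64), and none of 6 was called in the hybrids (none had an unadjusted p under 0.05).

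Of the mitochondrial translation factors 2 were measured in all groups. mEFTs, an elongation factor, rose between early and late pupae by 1.27 in the hybrids (SE 0.24, adjusted p = 0.000574) and by 1.12 in the mean of the species (SE 0.24, adjusted p = 0.00225). From late pupae to adults it fell by 0.88 in the hybrids (adjusted p = 0.0419), and its change in the mean of the species was -0.04. mRRF2, a ribosome recycling factor, instead fell from larvae to early pupae, by 1.44 in the hybrids (adjusted p = 0.00182) and by 1.64 in the mean of the species (adjusted p = 0.000537). Act88F, the actin of the indirect flight muscle, rose between early and late pupae by 1.29 in the hybrids and by 1.16 in the mean of the species. Its part in the late pupal values of mitochondrial members was not tested.

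The members lie on several chromosomes. Of the 14 cytosolic members 6 are on 3R, 4 on 2R, 2 on 3L and 2 on X, and of the 15 mitochondrial members 6 are on 3R, 3 on 3L, 3 on 2R, 2 on 2L and 1 on X. The genes called in single transitions, 6 in all, are RpL15 and the mitochondrial mRpL12 and mRpS31 on 3L, mRpL24 on 2L, RpS7 on 3R and RpL39 on 2R.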

How the data were processed

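Log2 ratios of sample to reference were used as deposited by the authors, who quantified and filtered the spots and removed trends of position and intensity with maanova's rflowess. Precision is limited by how many arrays there are. All 48 columns were used. The 2 spots of an element were averaged, near-identical arrays (correlation over 0.5) were merged, and the arrays of a pure species were averaged to 1 unit. Merging was chosen after the arrays had been seen. A limma model (version 3.58.1, R 4.3.3) over 23 units had 7 residual degrees of freedom and 9.73 prior degrees of freedom, so p-values measure the spread between hybrid pools and assume it for the species. Of 5251 elements, 2172 had no hybrid values and rest on the prior. The first element of a gene with values in all groups of a contrast was kept. Calls needed a Benjamini-Hochberg adjusted p under 0.05 over all genes and a 1.5-fold change. The methods' t-test over the 6 spots of a group was an alternative, with the same 1.5-fold threshold. It was run on all genes, without the paper's earlier filter for genes that vary over development. Its Bonferroni adjustment multiplied p by 3, for the transitions, and likewise from larvae to adults. It takes spots as replicates, with near-identical arrays unmerged. In a pure species its p-values thus measure technical spread within 1 pool.

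Members and lists were chosen with earlier results of these data known. All members are accounted for, and those named with values are the 3 highest and 3 lowest per transition, any called member, and members with several elements or a near-identical paralog. A probe naming RpS27A together with another gene was left out. The fit was tested on simulated data. Chromosomes come from a RefSeq gene table. Promoter sequences were not used here.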

Additional observations from a re-analysis of the deposited data

How the results depend on the processing

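Of 41 called changes of single members, 14 were called under every alternative, and none turned its direction. The alternatives other than leaving out a replicate lost 14 of 284 such values. The cause of the following moves was not tested. With every array as a replicate, cytosolic members called numbered 5 from larvae to early pupae in the mean of the species (1 in the reported fit), 2 from early to late pupae in the hybrids (1), 1 from late pupae to adults in the hybrids (0), 8 from larvae to adults in the hybrids (5) and 11 between species (0), and 11 mitochondrial members were called between species (0). With the replicate block as well, these counts were 5, 2, 1, 8, 11 and 12. The numbers pair nothing by the labels, and same-numbered hybrid pools correlated at -0.10 to 0.45 (mean 0.15, against -0.07 for other pairs), with 9 of 12 arrays closest to their own number. Without merging, the cytosolic counts were 4 from larvae to early pupae in the mean of the species, 3 from early to late pupae and 1 from late pupae to adults in the hybrids, and the mitochondrial count from larvae to adults in the mean of the species was 1 (2). It was also 1 with arrays centred and with genes measured in all groups only, where the hybrid count was 1 (2) as well. With arrays scaled to the same SD, the cytosolic counts were 2 from larvae to early pupae in the mean of the species, 3 from early to late pupae in the hybrids and 0 (1) in the mean of the species. The methods' t-test, by Bonferroni and by Benjamini-Hochberg alike, called 1, 3 and 8 cytosolic members in the hybrids from larvae to early pupae, from early to late pupae and from larvae to adults, and 1 mitochondrial member from larvae to adults. By Bonferroni it called 697, 1193 and 1085 of 2992 genes in those comparisons.

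Leaving out a replicate, cytosolic counts ran in the hybrids from 0 to 1, 0 to 3 and 0 to 2 in the 3 transitions and from 1 to 9 from larvae to adults. In the mean of the species they ran from 1 to 5 and 0 to 1 in the first and second transition. Mitochondrial counts ran in the hybrids from 0 to 1, 1 to 2 and 1 to 3 in the transitions and from 0 to 2 over the whole interval, and in the mean of the species from 2 to 3 in the last transition and 1 to 3 over the whole interval. Between species they ran from 0 to 1 for cytosolic and 0 to 4 for mitochondrial members. The shares of all genes called in the alternative limma fits are not given. With 3 arrays a group and 1 pool a species and stage, a difference in a species rests on the spread of the hybrid pools. The promoter comparison was not run.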
